A study of Mus musculus with 2 samples.

Results

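Lyve1, Folr2, Cbr2, F13a1, Cd163, Mrc1, Timd4 and Pf4 are genes used to recognise tissue-resident macrophages of the mouse heart. They were taken by symbol from the count matrices, in which each symbol occurred once, and are 8 of 22441 listed genes. Single cells of the heart were profiled with the 10x platform in AC8 overexpressing C57/B6 mice and in wild type C57/B6 littermates, with no treatment in either genotype and 1 library of pooled mice per genotype. AC8 stands for adenylyl cyclase type 8, which forms the messenger cyclic AMP, and the series title places its overexpression in cardiomyocytes, a cell type the labels do not list among those sorted. Each library mixed equal numbers of sorted CD45+ CD31- leukocytes, CD45- CD31- mesenchymal cells and CD45- CD31+ endothelial cells, so the share of macrophages among all cells was partly set by the sort. The driver of the transgene, the ages, the sexes and the number of pooled mice were not given in the sources used here. Because each genotype has 1 library, no difference between genotypes has a replicate check, and all intervals given are 95% intervals that cover counting error only.

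Resident macrophages of the heart are seeded in part before birth, renew themselves locally and take up debris and dying cells. Several of the genes encode receptors: Cd163 the scavenger receptor for haptoglobin-haemoglobin, Mrc1 the mannose receptor and Lyve1 a hyaluronan receptor. Folr2 encodes the folate receptor beta and Timd4 a receptor for phosphatidylserine on dying cells. F13a1 encodes the A chain of coagulation factor XIII, a transglutaminase that cross-links fibrin, Pf4 encodes the chemokine CXCL4, and Cbr2 encodes a carbonyl reductase. Some of them are known outside macrophages as well, Lyve1 in lymphatic endothelium, Pf4 in megakaryocytes and platelets, and F13a1 in monocytes.

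On GRCm38 (GENCODE vM21), Lyve1 lies at chr7:110850607-110863239 and Folr2 at chr7:101839988-101857194, both on the minus strand. Cbr2 lies at chr11:120729489-120732114 and F13a1 at chr13:36867178-37050244, also on the minus strand. The plus-strand genes are Cd163 at chr6:124304656-124330527, Mrc1 at chr2:14229392-14332057, Timd4 at chr11:46810800-46844332 and Pf4 at chr5:90772435-90773383. Values are counts over whole genes, so they do not separate exons, introns or UTRs. Of the annotated genes that overlap them, the antisense genes Gm30489 and Gm49144 (F13a1) and Gm10602 (Folr2), the pseudogene Gm45319 (Folr2) and Mir511 (Mrc1) were not among the counted symbols.

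RefSeq promoter windows (GRCm38.p6, 250 bases before to 50 after a start) were at hand for 7 of the 8 genes, 9 windows in all, as Folr2 and F13a1 have 2 each. The 250 bases before the start are shown for Mrc1, the gene that was lowest in AC8 relative to wild type, for Folr2, whose ratio was the nearest to 1, and for F13a1, the gene nearest by correlation to most of the others. Capitals mark GAGGAA, the core letters bound by the macrophage lineage factor PU.1, or TGCTGA, the core letters of the MAF recognition element, each read on both strands.
Mrc1, chr2:14229164-14229413, plus strand: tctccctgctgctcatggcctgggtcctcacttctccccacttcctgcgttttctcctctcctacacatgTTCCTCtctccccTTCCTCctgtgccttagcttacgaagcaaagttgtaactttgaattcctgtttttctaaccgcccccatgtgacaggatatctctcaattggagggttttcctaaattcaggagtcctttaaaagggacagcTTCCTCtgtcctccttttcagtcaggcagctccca
Folr2, chr7:101857191-101857440, minus strand: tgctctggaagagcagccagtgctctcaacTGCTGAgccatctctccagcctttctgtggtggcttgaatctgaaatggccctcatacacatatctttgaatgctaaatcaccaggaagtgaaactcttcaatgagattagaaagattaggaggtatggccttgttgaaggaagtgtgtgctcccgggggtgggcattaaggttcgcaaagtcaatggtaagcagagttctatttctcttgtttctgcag
F13a1, chr13:37050245-37050494, minus strand: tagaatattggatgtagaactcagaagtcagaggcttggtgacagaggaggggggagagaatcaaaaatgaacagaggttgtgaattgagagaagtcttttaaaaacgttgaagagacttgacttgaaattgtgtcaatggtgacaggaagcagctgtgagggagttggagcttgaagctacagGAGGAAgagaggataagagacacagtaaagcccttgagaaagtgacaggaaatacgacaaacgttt
The Mrc1 window holds 3 matches to GAGGAA, at positions -180, -167 and -35 from the start, all on the other strand. The F13a1 window holds 1 at -66 and 1 at position 18 after the start, the Pf4 window 1 at -8 and the Cbr2 window 1 at -79. The Folr2 window shown holds TGCTGA at -220, and the Timd4 window holds it at -150 and -44. GAGGAA was present in 5 of the 9 windows and in 28.3% of all 32851 promoter windows of the table. TGCTGA was present in 4 of the 9 and in 19.5% of all windows, and both occurred in Cbr2 and in 5.36% of all windows. These matches describe letters only and are not evidence of binding.

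The deposited matrices held 4867 AC8 cells and 5800 wild-type cells. After cells with fewer than 1000 unique molecular identifiers (UMIs, each a counted transcript) or 500 genes, cells over 10% mitochondrial UMIs and predicted doublets were left out, 3578 AC8 cells and 3546 wild-type cells remained, at median depths of 2324 UMIs in AC8 and 1886 UMIs in wild type. Clustering without the 8 genes gave 19 clusters, all of which could be named from marker genes, in 10 classes. Macrophage-like cells numbered 721 in AC8, with a median of 3212 UMIs, and 586 in wild type, with a median of 2007 UMIs. All 14 macrophage markers, none of them among the 8 genes, had a UMI in macrophage-like cells of both libraries. The class was named from these same markers, so their detection is not a separate check of the name. All 10 monocyte, 8 B cell, 10 T cell and 8 NK cell markers also had a UMI there in both libraries. So did all 9 fibroblast, 10 endothelial and 7 cardiomyocyte markers, so detection alone does not set the class apart. The barcode files hold only running cell numbers, so cell barcodes shared between the libraries could not be counted.

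Transcripts of the 8 genes were found mostly in macrophage-like cells in both libraries. Those cells held 15201 of the 16076 UMIs of the 8 genes in AC8 (94.6%, interval 94.2 to 94.9%) and 10692 of 11252 in wild type (95.0%, 94.6 to 95.4%). Together the genes made up 5776 counts per 1000000 UMIs (CPM) of macrophage-like cells in AC8 and 7836 CPM in wild type. The next classes were dendritic cell-like cells, with 742 CPM in AC8 and 1004 CPM in wild type, and monocyte-like cells, with 550 CPM in AC8 and 607 CPM in wild type. Fibroblast-like cells, the largest class, had 35.4 CPM in AC8 and 32.8 CPM in wild type. Every one of the 8 genes had its highest level in macrophage-like cells in both libraries, and the intervals of that class and of every other class were apart, except for Timd4 in AC8, where 1 UMI in 22 Schwann-like cells gave 26.3 CPM with an interval of 0.666 to 147.

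**Figure D1:**
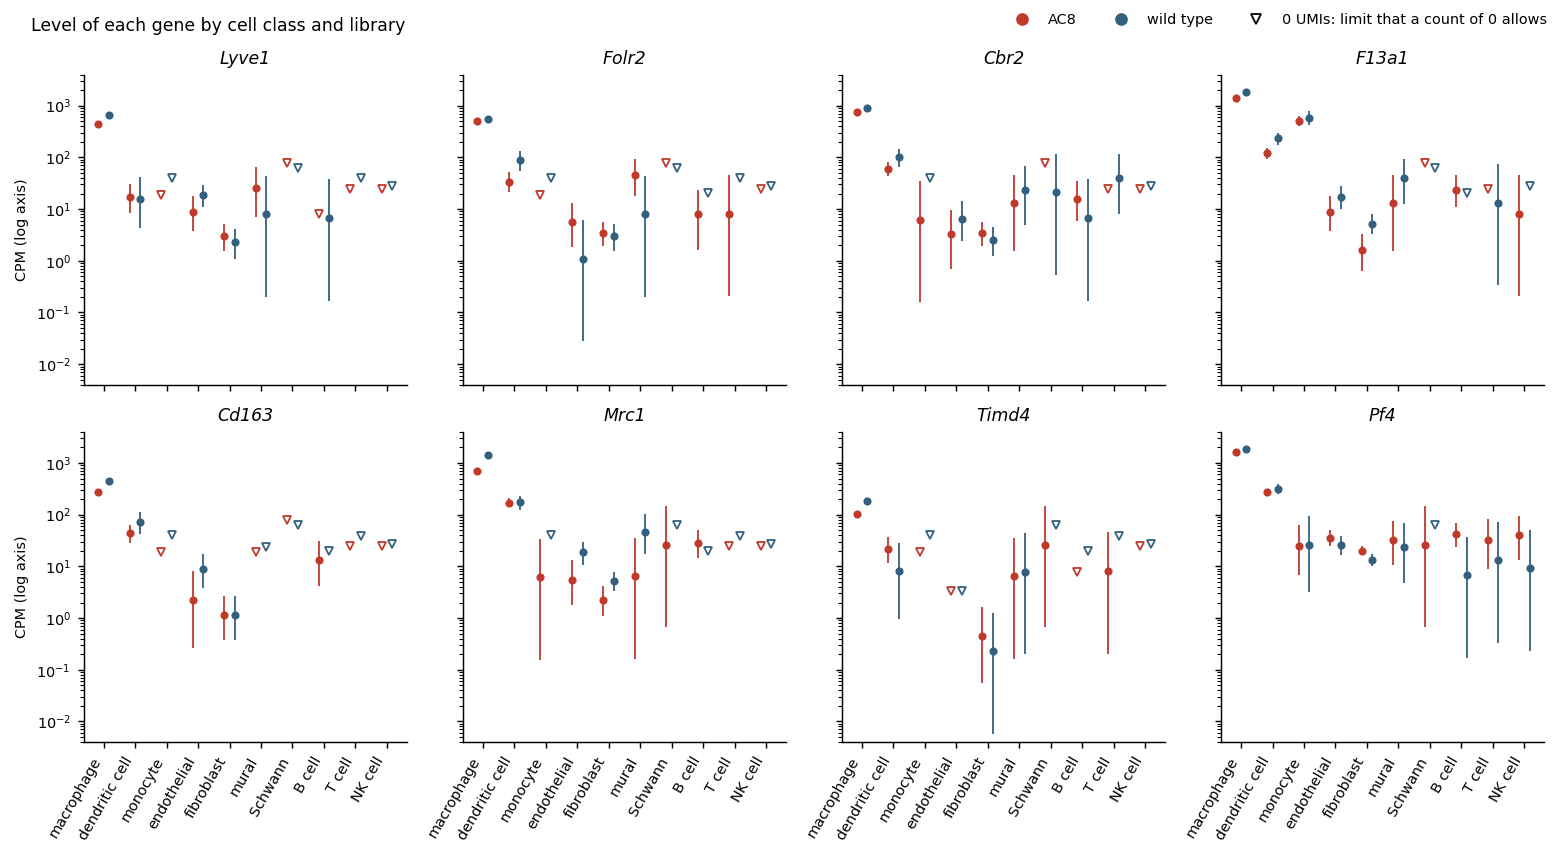
CPM of each gene (log axis) in the 10 cell classes, AC8 in red and wild type in blue, 1 library each; bars are exact Poisson intervals and open triangles mark classes with 0 UMIs, drawn at the level of 3 counts. All 8 genes stand highest in macrophage-like cells, and F13a1 also stands out in monocyte-like cells, with 513 CPM in AC8 and 581 CPM in wild type.

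Below the macrophage-like class, the genes parted into those with a second myeloid class and those without. F13a1 was next highest in monocyte-like cells, at 513 CPM (interval 409 to 636) in AC8 and 581 CPM (422 to 779) in wild type. It made up 93.3% of the UMIs of the 8 genes in AC8 monocyte-like cells and 95.7% in wild-type ones. The same cells held 0 UMIs of Lyve1, Folr2, Cd163 and Timd4 in either library, a count that allows levels of up to 18.6 CPM in AC8 and 39.6 CPM in wild type when the limit is taken as 3 counts per library, as it is for every count of 0 here. None of the other 7 genes was above 26.4 CPM in these cells, which were named from markers such as Ly6c2 and Plac8.

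Dendritic cell-like cells were the next class for Mrc1, at 172 CPM in both AC8 and wild type, and for Pf4, at 275 CPM in AC8 and 316 CPM in wild type. Their intervals were above those of the class in rank after them in each library. A few cells carried much of this: the 10 highest cells held 68.5% of the Pf4 UMIs of the class in AC8 (of 153 cells) and 79.7% in wild type (of 76 cells), and 38.7% of the Mrc1 UMIs in AC8 and 55.8% in wild type. C1qa, a macrophage gene, was at 1304 CPM in AC8 and 1343 CPM in wild type in the same class. The part of macrophage transcripts in these levels was not tested. Cd163 was at 43.3 CPM in AC8 dendritic cell-like cells and 72.0 CPM in wild-type ones. For Lyve1 and Timd4 no class after the macrophages could be ranked, since the intervals of the classes at ranks 2 and 3 overlapped in both libraries. Folr2 in dendritic cell-like cells, from 22 UMIs in each library, was 34.0 CPM in AC8 and 88.0 CPM in wild type, and in AC8 its interval overlapped that of mural-like cells at 45.0 CPM.

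The 7 classes that are not myeloid give a low level beside which these levels can be read. Free RNA in droplets can give transcripts to cells that do not make them, but its part in the counts of these classes was not tested. Summed over those classes, Lyve1 was 4.08 CPM in AC8 and 4.99 CPM in wild type, and Timd4 was 0.817 CPM in AC8 and 0.344 CPM in wild type. Pf4 was the highest there, at 24.8 CPM (21.0 to 29.1) in AC8 and 15.1 CPM (12.1 to 18.7) in wild type. In fibroblast-like cells Pf4 made up 57.1% of the UMIs of the 8 genes in AC8 and 40.3% in wild type, against 28.2% in AC8 and 23.4% in wild type among macrophage-like cells. Macrophage-like levels were 65.5 times the non-myeloid level for Pf4 in AC8 and 121 times in wild type, and 312 times for F13a1 in AC8 and 239 times in wild type.

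Endothelial-like cells had few Lyve1 transcripts, 8 UMIs in 569 AC8 cells and 17 UMIs in 618 wild-type cells. Of these, 5 of the 8 in AC8 and 10 of the 17 in wild type sat in 1 cell per library that also held a UMI of a lymphatic endothelial marker. Such a marker was found in 47 of the AC8 cells and 67 of the wild-type cells. In wild type these cells also held 6 of 8 Cd163 UMIs, 6 of 17 Mrc1 UMIs and 2 of 24 Pf4 UMIs. In AC8 they held 0 of 2 Cd163 UMIs, 0 of 5 Mrc1 UMIs and 3 of 32 Pf4 UMIs. Whether the Lyve1 transcripts came from lymphatic cells was not tested. No lymphatic cluster formed at this depth. Timd4 had 0 UMIs in endothelial-like cells, and 3 counts would be 3.34 CPM in AC8 and 3.28 CPM in wild type.

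Within macrophage-like cells, all 8 genes had lower CPM in AC8 than in wild type, and 4 of them, Mrc1, Timd4, Cd163 and Lyve1, were at least 1.5-fold lower. In the same cells 14.4% of the 8477 genes with at least 30 UMIs were at least 1.5-fold lower in AC8 and 11.6% at least 1.5-fold higher. Mrc1 and Timd4 stayed at least 1.5-fold lower under every alternative run except leaving out the Spp1 Gpnmb cluster described below, under which none of the 8 did. Lyve1, at a ratio of 0.649, was no longer 1.5-fold lower under 6 of the 13 alternatives, of which 2 change only the CPM added to log2 ratios and cannot move this one: its ratio was 0.684 and 0.688 with the other scalings, 0.674 with doublets kept, 0.770 as a mean over cells, 0.773 with cells reduced to 1000 UMIs and 0.917 without that cluster. Cd163 was no longer 1.5-fold lower as a mean over cells (0.708), at 1000 UMIs (0.668) and without that cluster (0.849). The median log2 ratio of AC8 over wild type, with 10 CPM added to each level, was -0.52 for the 8 genes and -0.02 for all genes. The genes differ from each other in how much of this was present inside each cluster of macrophages, as set out below.

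Among the receptor genes, Mrc1 had the lowest ratio. It was at 713 CPM in AC8 (1876 UMIs) and 1405 CPM in wild type (1917 UMIs), a ratio of 0.507 (interval 0.476 to 0.541). With each cell reduced at random to 1000 UMIs, 39.8% of AC8 macrophage-like cells and 55.5% of wild-type ones had an Mrc1 UMI. Without that reduction the shares were 62.1% in AC8 and 71.8% in wild type. In fibroblast-like cells, which serve as background with medians of 2738 UMIs in AC8 and 2163 UMIs in wild type, the reduced share was 0.196% in AC8 and 0.631% in wild type.

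Cd163 was at 272 CPM in AC8 and 446 CPM in wild type, a ratio of 0.610 (0.546 to 0.680). At 1000 UMIs, 17.9% of AC8 and 25.3% of wild-type macrophage-like cells had a UMI, against 30.4% in AC8 and 37.4% in wild type unreduced. Lyve1 was at 432 CPM in AC8 and 666 CPM in wild type, a ratio of 0.649 (0.594 to 0.709). Its share of positive cells was 18.2% in AC8 and 27.1% in wild type at 1000 UMIs, and 27.3% in AC8 and 35.5% in wild type unreduced. Both receptors were thus lower by level and by the share of cells.

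Timd4, the scarcest by share of cells, was at 105 CPM in AC8 and 180 CPM in wild type, a ratio of 0.584 (0.490 to 0.696). It was found in 8.46% of AC8 and 12.1% of wild-type macrophage-like cells at 1000 UMIs, and in 19.3% of AC8 and 22.5% of wild-type cells unreduced, with overlapping intervals both ways. Folr2 was at 503 CPM in AC8 and 557 CPM in wild type, a ratio of 0.903 (0.825 to 0.988). Its share was 29.3% in AC8 and 29.5% in wild type at 1000 UMIs, and 43.4% in AC8 and 41.1% in wild type unreduced. Folr2 was therefore nearly level between the genotypes, with share intervals that overlap.

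The enzymes and the secreted factor lay between these. F13a1 was at 1377 CPM in AC8 and 1849 CPM in wild type, a ratio of 0.744 (0.707 to 0.784), and was detected in 44.2% of AC8 and 52.2% of wild-type cells at 1000 UMIs (59.9% in AC8 and 61.8% in wild type unreduced). Cbr2 was at 747 CPM in AC8 and 898 CPM in wild type, a ratio of 0.832 (0.774 to 0.894), with shares of 37.0% in AC8 and 42.7% in wild type (50.2% in AC8 and 54.8% in wild type unreduced). Pf4 was at 1627 CPM in AC8 and 1834 CPM in wild type, a ratio of 0.887 (0.844 to 0.932), with shares of 55.2% in AC8 and 62.6% in wild type (73.9% in AC8 and 76.8% in wild type unreduced). None of these 3 reached 1.5-fold. Of the platelet markers, Itga2b, Gp1bb and Gp1ba had 0 UMIs in macrophage-like cells of both libraries. The 8 such markers summed to 36.1 CPM in AC8, with 49 UMIs of Ppbp and 42 of Gng11. In wild type they summed to 44.0 CPM, with 6 UMIs of Ppbp and 52 of Gng11. Of the 49 Ppbp UMIs in AC8, 39 were in the Spp1 Gpnmb cluster.

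Few of the genes could be compared in other classes. In dendritic cell-like cells 6 of the 8 genes had at least 30 UMIs, of which 4 (Folr2, Cbr2, F13a1 and Cd163) were at least 1.5-fold lower in AC8, where 13.5% of genes were that much lower and 14.2% that much higher. F13a1 was at 119 CPM there in AC8 and 232 CPM in wild type, a ratio of 0.513 (0.360 to 0.735), and Folr2 had a ratio of 0.387 (0.204 to 0.732). The intervals of Cbr2 (0.356 to 1.04) and Cd163 (0.321 to 1.15) span 1, as does that of Mrc1, with a ratio of 0.998 (0.696 to 1.45). The 10 highest cells held 63.6% of the F13a1 UMIs of this class in AC8 and 74.1% in wild type. In fibroblast-like cells 3 genes had 30 UMIs: Pf4 was at least 1.5-fold higher in AC8, where 4.43% of genes were, and F13a1 and Mrc1 at least 1.5-fold lower, where 11.8% of genes were. F13a1 in fibroblast-like cells rested on 7 UMIs in AC8 and 23 in wild type. In monocyte-like cells F13a1 had a ratio of 0.884 (0.606 to 1.31), and in endothelial-like cells Pf4 had a ratio of 1.36 (0.776 to 2.41). Both of these intervals span 1.

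Macrophage-like cells formed 3 clusters, and their mix differed between the libraries. A cluster led by F13a1, Lyve1 and Cbr2 (the Lyve1-led cluster) held 248 AC8 cells and 184 wild-type cells, 34.4% of macrophage-like cells in AC8 and 31.4% in wild type. A cluster led by Ccl12, C1qc and C1qa (the C1q-led cluster) held 328 AC8 cells and 394 wild-type cells, 45.5% in AC8 and 67.2% in wild type. Leading genes were ranked against cells of other classes only, so this name does not mean more C1q than in the Lyve1-led cluster. C1qa, C1qb and C1qc were each higher in the Lyve1-led cluster in both libraries. C1qa was at 5173 CPM there in AC8 and 4923 CPM in wild type, against 4395 CPM in AC8 and 3945 CPM in wild type in the C1q-led cluster. A cluster led by Spp1 and other lipid-associated macrophage genes, among them Gpnmb, held 145 AC8 cells and 8 wild-type cells, 20.1% in AC8 and 1.37% in wild type. A cluster present almost wholly in 1 library may be a feature of that library, which cannot be told apart from genotype here.

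The Lyve1-led cluster held most transcripts of the 8 genes, 62.2% of all their UMIs in AC8 and 60.8% in wild type. The 8 genes were left out of the clustering but not out of the leading genes, so the name of this cluster already reflects their levels. Lyve1 itself was at 1145 CPM there in AC8 and 1496 CPM in wild type, against 181 CPM in AC8 and 230 CPM in wild type in the C1q-led cluster. Pf4 was more evenly spread, at 2656 CPM in AC8 and 2686 CPM in wild type in the Lyve1-led cluster and 1280 CPM in AC8 and 1354 CPM in wild type in the C1q-led one. In the Spp1 Gpnmb cluster of AC8, 145 cells with a median of 5096 UMIs held 1 UMI of Lyve1, 1 of Timd4 and 11 of Cd163. The same AC8 cells had 988 CPM of Pf4, 240 CPM of F13a1, 134 CPM of Mrc1, 95.6 CPM of Cbr2 and 79.9 CPM of Folr2, so Lyve1 and Timd4 were nearly undetected in cells where Pf4 was readily found. The 8 wild-type cells of that cluster are too few for a comparison.

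**Figure D2:**
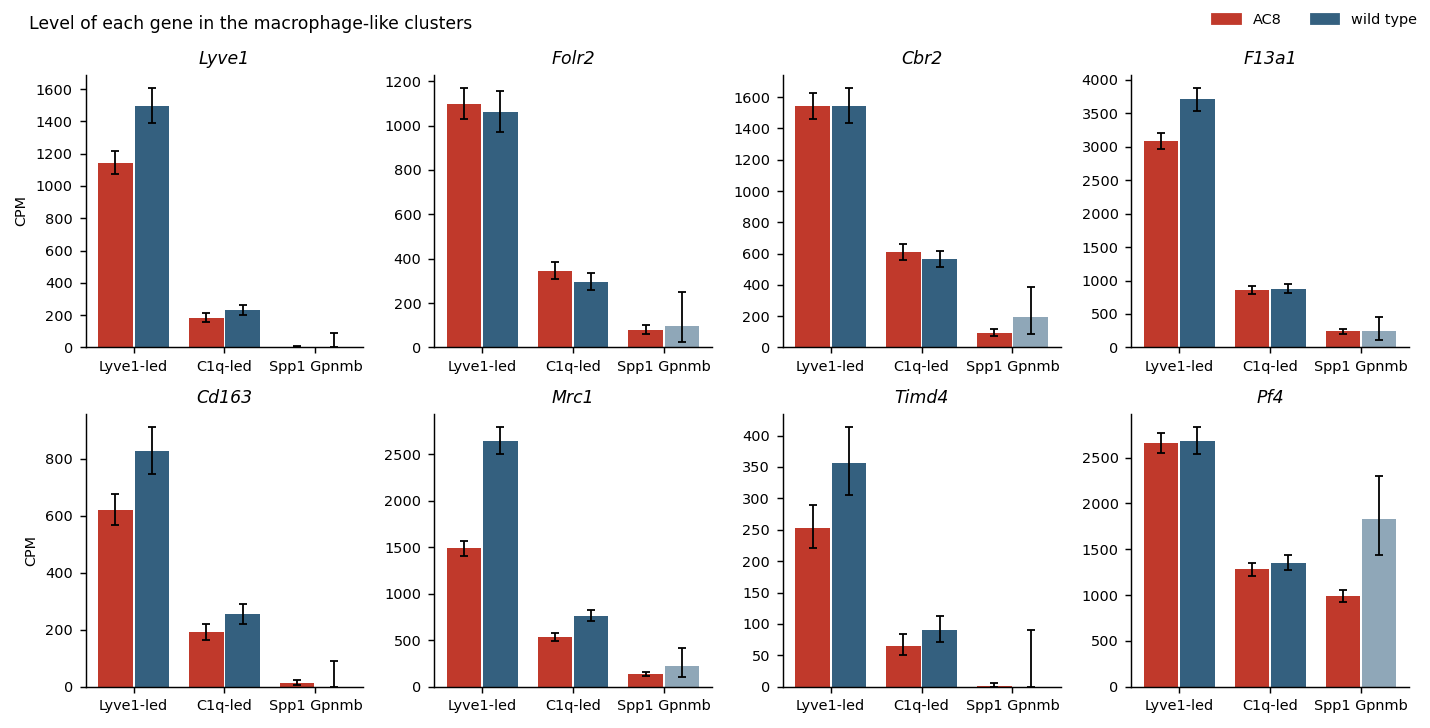
CPM of each gene (linear axis from 0) in the 3 macrophage-like clusters, AC8 in red and wild type in blue, with exact Poisson intervals; the pale bars rest on 8 wild-type cells. Mrc1 is lower in AC8 inside both large clusters, at 1487 CPM against 2646 CPM in wild type in the Lyve1-led one, while Folr2, Cbr2 and Pf4 bars stand close together.

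Leaving the Spp1 Gpnmb cluster out brought most of the ratios nearer to 1 or above it. The median log2 ratio of the 8 became -0.062, against 0.02 for all 7955 genes measured in those cells, and none of the 8 was 1.5-fold apart, where 9.68% of genes were that much higher and 8.96% that much lower in AC8. F13a1 was then at 1897 CPM in AC8 and 1899 CPM in wild type, and Lyve1 at 630 CPM in AC8 and 687 CPM in wild type, a ratio of 0.917 with an interval that reaches 1. Folr2 and Cbr2 were higher in AC8, with ratios of 1.22 (1.11 to 1.34) and 1.14 (1.06 to 1.22), and Pf4 had a ratio of 1.05 (0.994 to 1.10). Mrc1 remained the lowest, at 978 CPM in AC8 and 1442 CPM in wild type, a ratio of 0.678 (0.635 to 0.724). Cd163 at 0.849 (0.760 to 0.947) and Timd4 at 0.822 (0.690 to 0.981) also kept ratios below 1.

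Inside the Lyve1-led cluster, Mrc1 was the single member at least 1.5-fold lower in AC8, where 15.6% of 5769 measured genes were that much lower and 12.2% that much higher. It was at 1487 CPM in AC8 and 2646 CPM in wild type, a ratio of 0.562 (0.519 to 0.608). Timd4 at 253 CPM in AC8 and 356 CPM in wild type, Cd163 at 619 CPM in AC8 and 825 CPM in wild type, and Lyve1 (ratio 0.765) all had intervals of the ratio below 1, of 0.579 to 0.876 for Timd4, 0.656 to 0.857 for Cd163 and 0.694 to 0.844 for Lyve1. F13a1 was at 3088 CPM in AC8 and 3706 CPM in wild type (ratio 0.833). Folr2 at 1098 CPM in AC8 and 1060 CPM in wild type, Cbr2 at 1543 CPM in AC8 and 1546 CPM in wild type, and Pf4 had intervals that span 1.

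In the C1q-led cluster none of the 8 genes was 1.5-fold apart without reducing depth, where 10.3% of 6169 genes were that much lower and 10.3% that much higher in AC8. Mrc1 again had the lowest ratio, at 534 CPM in AC8 and 762 CPM in wild type (0.700, 0.622 to 0.787). Cd163 was at 192 CPM in AC8 and 254 CPM in wild type (0.754) and Lyve1 had a ratio of 0.787, both with intervals below 1. Timd4, from 63 UMIs in AC8 and 76 in wild type, had a ratio of 0.727 with an interval of 0.512 to 1.03. Folr2, Cbr2, F13a1 and Pf4 had intervals that span 1. In both large clusters Mrc1, Cd163, Timd4 and Lyve1 had the 4 lowest ratios of the 8 genes. Folr2, also a receptor gene, had the highest in both. These clusters share the same 2 libraries, and AC8 cells were deeper in each, with medians of 3200 UMIs against 2375 in wild type in the Lyve1-led cluster and 2720 UMIs against 1889 in wild type in the C1q-led cluster. The part of depth in these ratios was not tested beyond reducing all cells to 1000 UMIs, at which the log2 ratio of Mrc1 was -0.64 in the Lyve1-led cluster and -0.75 in the C1q-led one. In the C1q-led cluster the log2 ratio of Lyve1 moved from -0.33 to -0.73 at 1000 UMIs. Mrc1 and Lyve1 were thus at least 1.5-fold lower in AC8 there at equal depth. The log2 ratios of the other genes lay between -0.37 (Timd4) and 0.12 (Cbr2).

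**Figure D3:**
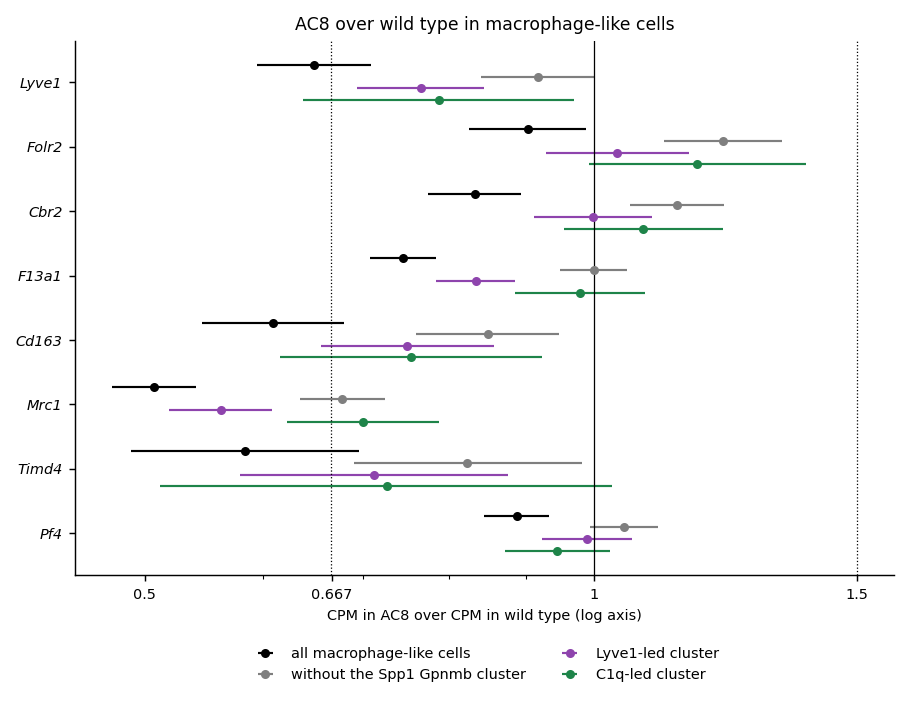
CPM in AC8 over CPM in wild type (log axis) for each gene in all macrophage-like cells (black), without the Spp1 Gpnmb cluster (grey), in the Lyve1-led cluster (purple) and in the C1q-led cluster (green); bars are exact binomial intervals, the solid line marks a ratio of 1 and dotted lines 1.5-fold in each direction. Mrc1 lies below 1 in every set, from 0.507 to 0.700, whereas Folr2 crosses 1, from 0.903 in all macrophage-like cells to 1.22 without the Spp1 Gpnmb cluster.

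The number of the 8 genes detected per cell was described at 1000 UMIs, so that depth was equal. Macrophage-like cells had a median of 2 of the genes in AC8 and 3 in wild type. None of the 8 was found in 26.6% of AC8 cells and 14.5% of wild-type cells, and 5 or more in 23.0% of AC8 cells and 31.6% of wild-type cells, and the intervals of the 2 libraries were apart for both shares. In the Spp1 Gpnmb cluster of AC8, 55.2% of cells had none. Cells with none were also more common in AC8 in the C1q-led cluster, at 31.7% (26.7 to 37.0%) in AC8 and 19.8% (16.0 to 24.1%) in wild type. For 5 or more genes the intervals of that cluster overlapped, at 10.4% (7.29 to 14.2%) in AC8 and 15.5% (12.1 to 19.4%) in wild type. In the Lyve1-led cluster 52.4% of AC8 cells (46.0 to 58.8%) and 67.4% of wild-type cells (60.1 to 74.1%) had 5 or more. The median there was 5 genes in both libraries. Cells with none made up 3.23% (1.40 to 6.26%) of it in AC8 and 2.72% (0.888 to 6.23%) in wild type, with overlapping intervals. All 8 genes were found in 8 AC8 cells and 4 wild-type cells. Of fibroblast-like cells, 96.6% in AC8 and 96.4% in wild type had none.

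**Figure D4:**
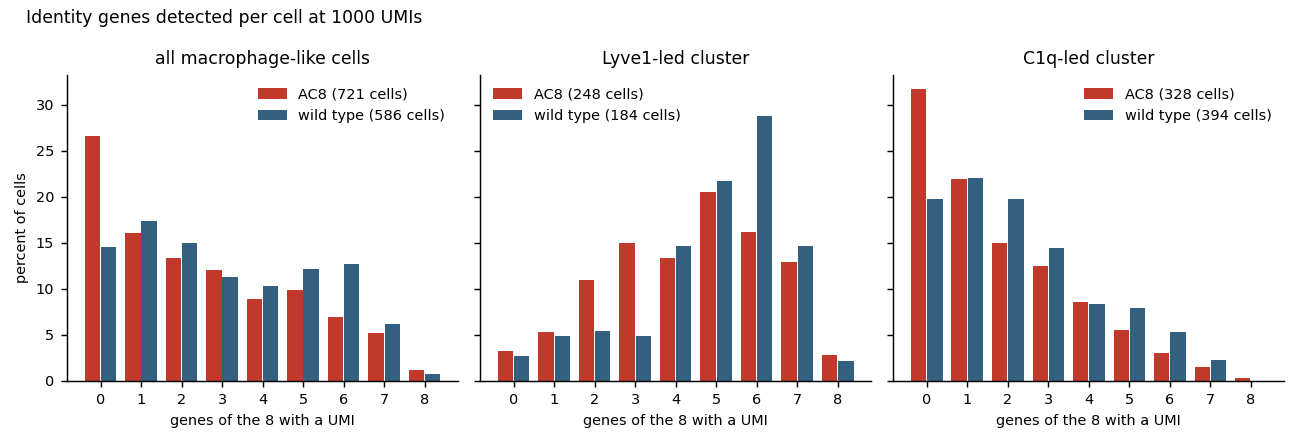
Percent of cells by the number of the 8 genes with a UMI, each cell reduced to 1000 UMIs, for all macrophage-like cells and the 2 large clusters, AC8 in red and wild type in blue. In the Lyve1-led cluster 52.4% of AC8 cells and 67.4% of wild-type cells reach 5 or more genes.

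F13a1 and Folr2 were found more often in cells with Lyve1 than in cells without it, and Lyve1 more often in cells with Timd4. Of the 131 AC8 macrophage-like cells with a Lyve1 UMI at 1000 UMIs, 90.8% also had F13a1, and of the 159 such wild-type cells 93.7% did, compared with 33.9% in AC8 and 36.8% in wild type among cells without Lyve1. Folr2 was found in 71.8% of Lyve1-positive AC8 cells and 61.0% of wild-type ones, and in 19.8% of Lyve1-negative cells in AC8 and 17.8% in wild type. Among the 61 AC8 cells and 71 wild-type cells with Timd4, Lyve1 was found in 60.7% in AC8 and 69.0% in wild type, against 14.2% in AC8 and 21.4% in wild type of cells without it. Timd4-positive cells thus lay mostly within the Lyve1-positive set, while 28.2% of Lyve1-positive cells in AC8 and 30.8% in wild type had Timd4. Cd163 was found in 47.5% of Timd4-positive and 15.2% of Timd4-negative cells in AC8, and in 32.4% of Timd4-positive and 24.3% of Timd4-negative cells in wild type, where the intervals overlapped.

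**Figure D5:**
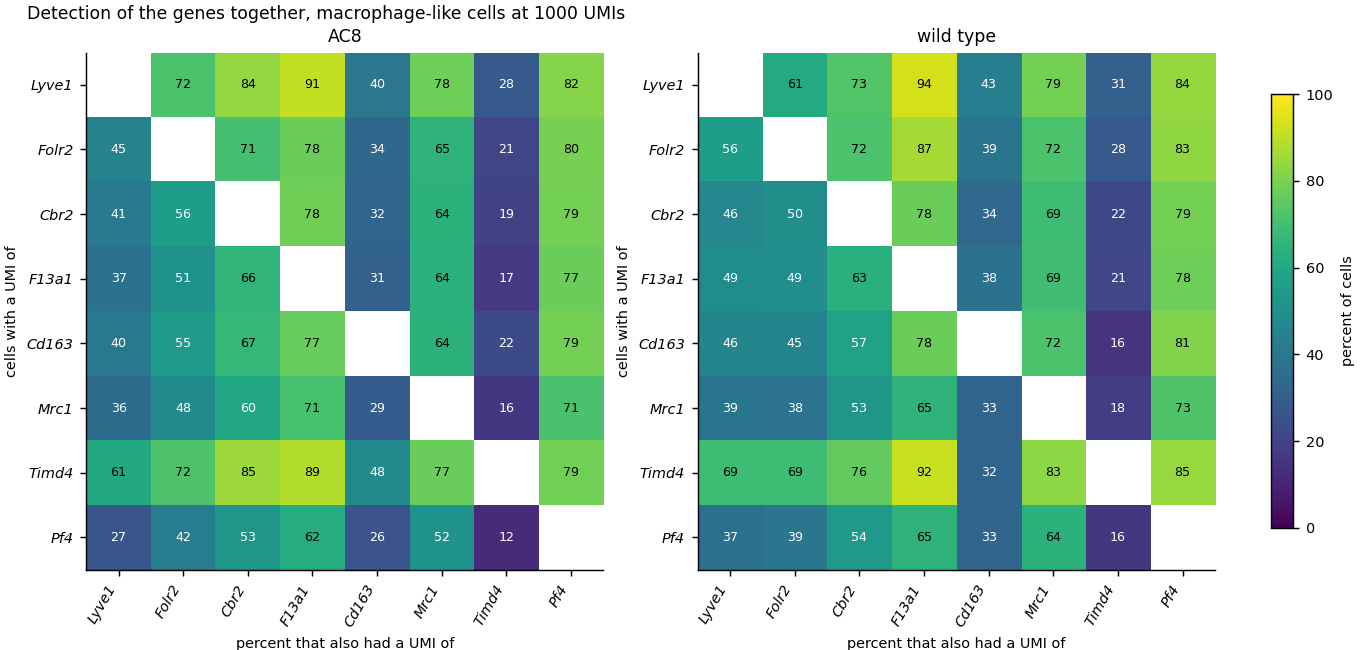
Percent of macrophage-like cells with a UMI of the gene in the row that also had a UMI of the gene in the column, at 1000 UMIs per cell, AC8 on the left and wild type on the right. The F13a1 column is high in the Lyve1 row, 90.8% in AC8 and 93.7% in wild type, and the Timd4 column is low throughout.

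A combination of Timd4, Lyve1 and Folr2 is often used to mark resident macrophages and Ccr2, a chemokine receptor, to mark cells newly derived from monocytes. At 1000 UMIs, at least 1 of the 3 resident genes was found in 258 of 721 AC8 cells (35.8%, 32.3 to 39.4%) and 244 of 586 wild-type cells (41.6%, 37.6 to 45.7%). Ccr2 was found in 9.02% of AC8 cells (7.03 to 11.3%) and 4.61% of wild-type cells (3.06 to 6.63%), and both kinds of marker in 6 AC8 cells and 4 wild-type cells. None of these 4 genes was found in 56.0% of AC8 cells and 54.4% of wild-type cells. The MHC class II gene H2-Aa was rarer with Lyve1 than without it, in 29.8% of Lyve1-positive and 70.8% of Lyve1-negative cells in AC8, and in 54.1% of Lyve1-positive and 85.7% of Lyve1-negative cells in wild type. Spp1 was found in 0 Lyve1-positive cells of either library, which allows a share of up to 2.29% in AC8 and 1.89% in wild type, and in 12.5% of Lyve1-negative cells in AC8 and 2.11% in wild type. The bridging molecule gene Gas6 went the other way, at 49.6% with Lyve1 and 14.2% without it in AC8, and 41.5% with and 15.7% without it in wild type.

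Genes most like each of the 8 were sought over 1307 macrophage-like cells at 1000 UMIs, as the mean of the correlations within each library over 2430 genes. F13a1 came first for 6 of the other 7 genes and Lyve1 for Timd4, with the highest coefficient, 0.546, between Lyve1 and F13a1 (0.518 in AC8 and 0.575 in wild type). The 3 nearest genes were all members of the 8 for 6 of the genes, and Cd163 had Selenop at rank 3 (0.247). Cells of a library share its free RNA and its cluster mix, so these coefficients describe and carry no test. Over the 20 class-by-library levels the nearest gene was Adam33 for Lyve1 (0.971), Slc11a1 for F13a1 (0.974), Fmn1 for Cd163 (0.960), C1qb for Mrc1 (0.953), Rnf180 for Folr2 (0.948), Hpgds for Cbr2 (0.936), Fcna for Timd4 (0.916) and Cd163 for Pf4 (0.958).

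Other genes associated with resident heart macrophages were mostly lower in AC8 macrophage-like cells, 24 of 32 measured, with a median log2 ratio of -0.20. At least 1.5-fold, 7 were lower, where 14.4% of all measured genes were, and 3 higher, where 11.6% were. Ednrb, the endothelin receptor B gene, was at 87.8 CPM in AC8 and 191 CPM in wild type. The chemokine gene Ccl8 was higher, at 350 CPM in AC8 and 60.1 CPM in wild type, as was Ninj1, an adhesion molecule gene, at 407 CPM in AC8 and 207 CPM in wild type. Without the Spp1 Gpnmb cluster the balance was the other way, with 21 higher and 11 lower and a median of 0.13.

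Of 16 regulators of the macrophage lineage, 7 were higher and 9 lower in AC8, with a median log2 ratio of -0.04. The transcription factor gene Maf was at 424 CPM in AC8 and 437 CPM in wild type. Spi1, which encodes PU.1, was at 369 CPM in AC8 and 331 CPM in wild type, with a ratio of 1.12 (0.998 to 1.25). Id3, an inhibitor of DNA binding, was at 617 CPM in AC8 and 358 CPM in wild type. The scarce Nr1h3 had 33 UMIs in AC8 and 0 in wild type, Bhlhe41 38 UMIs in AC8 and 5 in wild type, and Smad3 18 UMIs in AC8 and 25 in wild type. Without the Spp1 Gpnmb cluster 14 regulators were measured, 7 higher and 7 lower (median 0.02). Of these, 1 was at least 1.5-fold higher, where 9.68% of all measured genes were, and 1 lower, where 8.96% were.

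Among 17 measured endocytic and scavenger receptors outside the 8, 6 were higher and 11 lower in AC8 (median -0.11), and 4 were at least 1.5-fold higher and 1 lower, where 11.6% of all measured genes were that much higher and 14.4% that much lower. The lectin gene Clec4n was at 199 CPM in AC8 and 85.0 CPM in wild type, Cd68 at 866 CPM in AC8 and 490 CPM in wild type, and the endocytic adaptor gene Dab2 at 443 CPM in AC8 and 708 CPM in wild type. Without the Spp1 Gpnmb cluster 12 of the 17 were higher and 5 lower, with a median of 0.15. Of 8 measured genes of alternative activation, 3 were higher and 5 lower (median -0.24). Retnla was at 358 CPM in AC8 and 693 CPM in wild type, the lectin gene Mgl2 at 446 CPM in AC8 and 661 CPM in wild type, and Chil3 at 41 UMIs in AC8 and 3 in wild type, a ratio of 7.09 (2.26 to 35.8). Chil3 is also among the markers used to name monocyte-like cells. Without the Spp1 Gpnmb cluster 7 genes of this list were measured, 3 higher and 4 lower (median -0.12). Of these, 0 were at least 1.5-fold higher, where 9.68% of all measured genes were, and 1 lower, where 8.96% were.

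Of 16 MHC class II and Ccr2 macrophage genes, 6 were higher and 10 lower in AC8 (median -0.15). Itgax, an integrin gene, was at 58.9 CPM in AC8 and 13.2 CPM in wild type, Ccr2 at 103 CPM in AC8 and 66.0 CPM in wild type, Ciita, the class II transactivator, at 23.2 CPM in AC8 and 52.0 CPM in wild type, and Il1b at 743 CPM in AC8 and 1153 CPM in wild type. Without the Spp1 Gpnmb cluster 6 of the 16 were higher and 10 lower (median -0.27). Inside it, with its 8 wild-type cells, 12 of 14 measured were higher (median 1.44). Within the Lyve1-led cluster H2-Aa, singled out after its values were seen, was at 470 CPM in AC8 and 1688 CPM in wild type. Of 15 lipid-associated macrophage genes 13 were higher in AC8 and 12 at least 1.5-fold, where 11.6% of all measured genes were, with a median of 1.16, 9 of them over 2-fold: Gpnmb, Spp1, Mmp12, Lgals3, Ctsd, Fabp5, Cd9, Lgals1 and Trem2. Gpnmb was at 266 CPM in AC8 and 19.1 CPM in wild type. Fabp4 was the member of that list at least 1.5-fold lower, at 142 CPM in AC8 and 265 CPM in wild type. Genes of this list lead the Spp1 Gpnmb cluster, and without that cluster 11 of 14 measured were higher, 6 of them at least 1.5-fold, with a median of 0.46.

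Genes induced by tissue dissociation also differed between the libraries in the same cells. Of 22, 15 were lower in AC8 and 7 of these at least 1.5-fold, where 14.4% of all measured genes were (median -0.27). Without the Spp1 Gpnmb cluster 14 were lower, 4 of them at least 1.5-fold (median -0.14), and inside it, with its 8 wild-type cells, 19 were higher (median 0.51). Hsph1 was at 54.0 CPM in AC8 and 163 CPM in wild type, Hspb1 at 106 CPM in AC8 and 266 CPM in wild type, Hspa1b at 858 CPM in AC8 and 2054 CPM in wild type, and Hspa1a at 1537 CPM in AC8 and 3083 CPM in wild type. Markers of erythroid cells summed to 5.32 CPM in AC8 and 183 CPM in wild type, and 8 neutrophil markers to 118 CPM in AC8 and 486 CPM in wild type, with Ly6g at 0 in both libraries. Their part in the lower levels of the 8 genes in AC8 was not tested.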

How the data were processed

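Per the labels' protocols, the libraries were made on the 10x platform and counted with Cell Ranger; the submitters' processing notes name mm10. The Cell Ranger version, the gene annotation and any filter on cells were not given in the sources used here. The authors deposited 1 matrix of raw UMI counts per gene and cell for each genotype, 11076564 UMIs in AC8 and 9664932 in wild type, with no cell of fewer than 500 UMIs in either.

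Cells with at least 1000 UMIs, 500 genes and at most 10% mitochondrial UMIs were kept (1126 AC8 and 2066 wild-type cells fell below the minimum). Doublets were scored against simulated ones and 145 AC8 and 173 wild-type cells removed (0.8% per 1000 cells). Log counts per 10000 of 2000 variable genes, without the 8 genes, were reduced to 30 principal components, joined over 15 neighbours and clustered (Leiden, resolution 1, leidenalg 0.10.2, scikit-learn 1.9.0, Python 3.11.15). A cluster took the type whose markers were highest, with at least 3 detected. UMIs were summed per class and library and given as CPM with exact Poisson intervals, shares with Clopper-Pearson intervals and ratios with exact binomial intervals, computed with scipy 1.17.1. Log2 ratios had 10 CPM added. Cells are not replicates, so no test between genotypes was made. The ratio script was tested on simulated data. Alternatives were scaling by the median of ratios or TMM, 1 or 50 CPM added, means over cells, cells reduced to 1000 UMIs, no or a higher minimum of UMIs, doublets kept, resolutions 0.6 and 1.6, the Spp1 Gpnmb cluster left out, and the 8 genes allowed in clustering.

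All 8 genes were named, with the 3 genes most like each, and from each list the 2 to 4 genes with the largest log2 ratio and any at least 2-fold apart; other genes named in the text were chosen after their values were seen. The 8 genes, the lists and the markers were chosen with earlier results of these data known. Some genes that the naming rule would give are not reported here.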

Additional observations from a re-analysis of the deposited data

Results flagged for a closer look

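The ratio of Pf4 lay on either side of 1 in different classes. In fibroblast-like cells it was higher in AC8, at 20.2 CPM in AC8 and 13.2 CPM in wild type, a ratio of 1.53 (1.09 to 2.17), whereas in macrophage-like cells the ratio was 0.887 and in the Spp1 Gpnmb cluster, with 8 wild-type cells, 0.539. Macrophage-like cells without that cluster had a ratio of 1.05 (0.994 to 1.10), and in the Lyve1-led cluster (0.989) and the C1q-led cluster (0.945) the intervals span 1. In endothelial-like cells the ratio was 1.36, with an interval of 0.776 to 2.41 that spans 1. With 1 library per genotype the difference between the classes was not tested. At 1000 UMIs per cell, 1.89% of AC8 and 1.52% of wild-type fibroblast-like cells had a Pf4 UMI, against 5.35% in AC8 and 3.05% in wild type unreduced, at medians of 2738 UMIs in AC8 and 2163 UMIs in wild type. The part of free macrophage RNA in this difference was not tested.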

How the results depend on the processing

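The median log2 ratio of the 8 genes in macrophage-like cells, -0.52, was -0.28 as a mean over cells, -0.26 with cells reduced to 1000 UMIs, -0.062 without the Spp1 Gpnmb cluster and -0.79 with a minimum of 2000 UMIs and 1000 genes. The number of the 8 higher in AC8, 0 as reported, was 1 as a mean over cells, 1 at 1000 UMIs and 3 without the Spp1 Gpnmb cluster. The share of the UMIs of the 8 genes in macrophage-like cells was 94.0% in wild type with no minimum; 96.4% in AC8 and 92.3% in wild type with 2000 UMIs and 1000 genes; 92.7% in AC8 and 89.2% in wild type with doublets kept; 96.3% in AC8 and 96.7% in wild type at resolution 0.6; and 96.3% in AC8 and 96.7% in wild type at 1.6. The cause of these moves was not tested.

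Over the 13 alternatives Mrc1 stayed between -1.21 and -0.56 and Lyve1 between -0.95 and -0.12, while Folr2 was above 0 in 3 and Cbr2 and Pf4 in 1 each. Scaling by the median of ratios or by TMM shifted log2 ratios by 0.08 before the 10 CPM was added, and none of the 8 changed direction. Of the 4 genes 1.5-fold lower, Lyve1 was not under 6 alternatives and Cd163 under 3. The fits within the 2 large clusters as a mean over cells and at 1000 UMIs were added after seeing the data. No paired analysis was possible because each genotype has 1 library, and for the same reason no replicate could be left out.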
